A study of Mus musculus with 5 samples.

Results

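Collagens, laminins, nidogens and integrins are the genes that build the matrix of a nerve and the receptors that hold cells to it. Members were taken as the probe sets whose single symbol in the platform annotation names a collagen chain, a laminin chain, a nidogen or an integrin subunit, whatever their values. This gave 38 of the 10361 probe sets in the table, each for a different gene, against 83 such genes in the RefSeq annotation. They comprise 18 of 44 collagens, 4 of 11 laminins, 1 of 2 nidogens, 9 of 18 integrin alpha subunits and 6 of 8 integrin beta subunits. The other 45 genes are not analysed here, among them Col1a1, Col1a2 and Col3a1 of the collagen fibrils, Lama2, Lama4 and Lamb1 of the Schwann cell basal lamina, and the receptor genes Itgb1 and Itga6.

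The groups compared were Ebf2-/- knockout (KO) pups and their Ebf2+/+ wild-type (WT) counterparts, all on a C57Bl6N background and 2 days old, from matings between heterozygotes. Ebf2 is one of the early B cell factors, which are DNA-binding regulators of transcription, and the labels name no promoter or cell type that would limit its loss in the KO pups. Sciatic nerves of mouse pups of 1 genotype were combined, 12 to a pool, and each array read 1 pool, giving KO pools 2 and 4 and WT pools 1, 9 and 11. The sources used here do not give how many pups or litters stand behind a pool or which exons the allele lacks. All p-values therefore rest on differences among 5 pools, part of which may be technical.

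The arrays gave 1 log2 level per probe set and pool. A difference below is always the KO mean minus the WT mean on that log2 scale, with the moderated standard error (SE) of limma. The adjusted p runs over all 10361 probe sets, and a gene is called below 0.05. The median level of an array was 9.11 and 8.93 in KO pools 2 and 4, against 9.11, 9.09 and 9.04 in WT pools 1, 9 and 11. Ebf2 itself read 9.25 and 8.75 in KO pools 2 and 4, against 11.55, 11.14 and 11.40 in WT pools 1, 9 and 11, a 5.16-fold lower level (difference -2.37, SE 0.19), and no array went against its label. Each probe set kept in the table spanned at least 0.175 between its lowest and its fourth-ranked value, so genes that varied less between pools are not in it. The table has no detection call, and levels of different probe sets were not compared with each other.

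As a check of the tissue, the 7 measured Schwann cell markers averaged 11.75 and 11.41 in KO pools 2 and 4, against 11.98, 12.12 and 12.04 in WT pools 1, 9 and 11. Mag and Egr2 among them, genes of the myelin programme, were called lower (differences -0.99 and -1.13). Markers of other tissues differed between the WT pools. The 9 measured keratinocyte markers averaged 7.54 and 7.78 in KO pools 2 and 4, against 7.44, 9.49 and 8.93 in WT pools 1, 9 and 11. The 10 skeletal muscle markers averaged 11.23 and 11.47 in the KO pools, against 10.76, 12.44 and 12.24 in the WT pools. WT pools 9 and 11 thus stood apart from the other 3 in both lists. In limma 0 genes of either list were called. At unadjusted p below 0.05, 5 keratinocyte markers (55.6%) and 3 muscle markers (30%) were lower, against 14.3% of all probe sets in either direction. Results for the members are also given against WT pool 1 alone.

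In a peripheral nerve, fibrillar collagens made largely by fibroblasts form the tensile fibres between the axon units. Each Schwann cell, perineurial cell and endothelial cell rests on a basement membrane, a sheet built from a laminin network and a collagen IV network that nidogens connect. Integrins are pairs of 1 alpha and 1 beta subunit that span the membrane and bind these proteins, and in Schwann cells laminin receptors are required for sorting axons before myelination.

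No member was called. All 38 had adjusted p of at least 0.111, while 70 of all probe sets passed, which is 0.676%. At unadjusted p below 0.05 there were 6 members, 5 higher in KO (Col12a1, Itga8, Itga11, Itga9 and Itgb5) and 1 lower (Itgb8). That share, 15.8%, is near the 14.3% found among all probe sets at that threshold (7.14% higher and 7.17% lower), so it is not a result about these genes. Set against WT pool 1 alone, where only the KO pools give the spread, 1.23% of all probe sets reached that threshold, so the 0 of 38 members there cannot be read as a loss. Comparisons with WT pool 1 alone are therefore given as differences without a test. Without moderation of the variances 0 members were called. The 3 of 38 with unadjusted p below 0.05 in that fit were Col6a1, Col6a6 and Col26a1, while 4.81% of all probe sets passed. The differences ran from -0.49 (Itgb8) to 0.63 (Col12a1), with 26 positive and 12 negative values. That is 68.4% positive, beside 49.8% of all probe sets. Centring each array on its median shifts every difference by the same amount, and the shares were then 81.6% of members and 56.7% of all, with the median of all at 0.06. After quantile normalisation they were 78.9% of members and 52.1% of all. On the values as deposited, the median difference of the members was 0.16, beside -0.002 over all probe sets. Against WT pool 1 alone these medians were 0.105 and 0.0055, with 68.4% of members and 50.8% of all positive. Only 26 of the 38 members kept the sign of their difference in that comparison. The plot of differences by class shows that most intervals include 0.

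**Figure D1:**
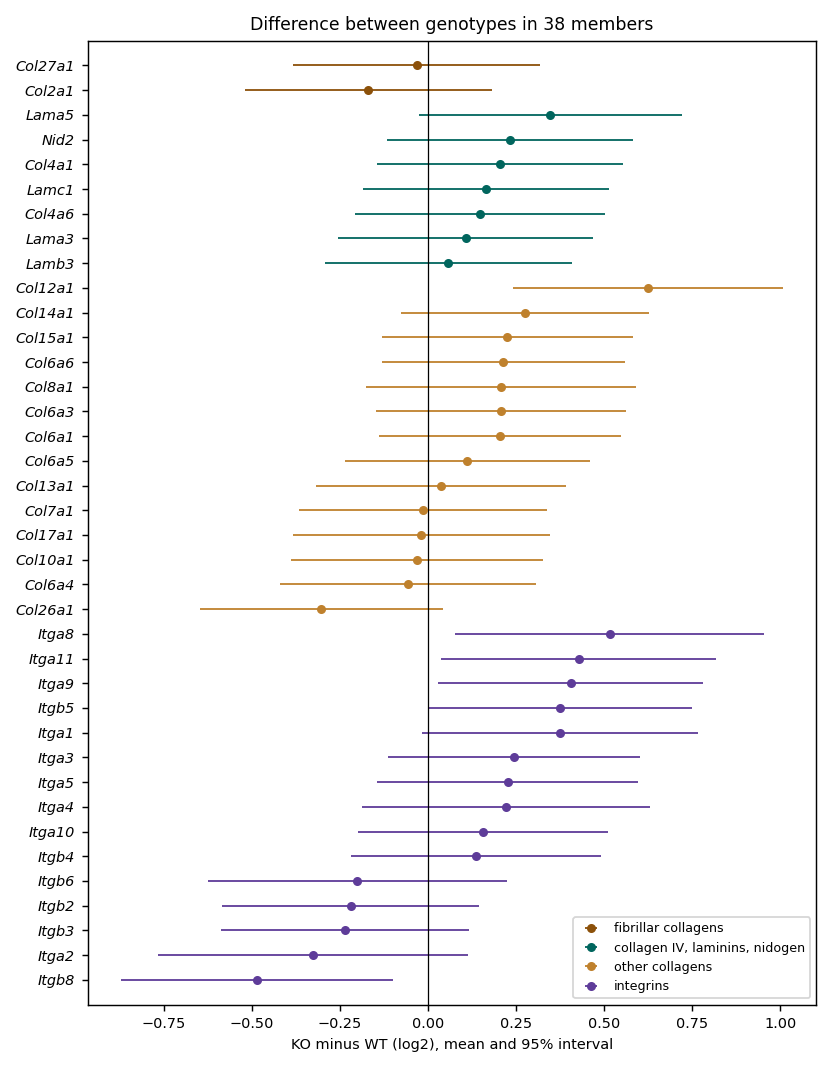
Difference between genotypes (KO minus WT, log2) for each of the 38 members, as a point with its 95% interval from limma, ordered by size within fibrillar collagens, the basement membrane group, other collagens and integrins. The intervals of Col12a1, Itga8, Itga11, Itga9 and Itgb5 lie above 0, that of Itgb8 lies below 0, and all others cross it.

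The pools did not overlap in 14 members. In 11 of the 38 (28.9%) both KO pools read above all WT pools, against 17.5% of all probe sets. In 3 of them (7.89%), Itgb8, Itgb3 and Col26a1, both KO pools read below all WT pools, against 13.3% of all probe sets. The 11 were Col12a1, Col14a1, Col15a1, Col4a1, Col6a1, Col6a6, Nid2, Itga3, Itga9, Itga11 and Itgb5. Col15a1 cleared WT pool 1 only in its last decimal.

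Fibrillar collagens, which assemble into striated fibres, were represented by 2 of 11 genes. Col27a1, a fibrillar collagen of cartilage, read 9.51 and 9.77 in KO pools 2 and 4, against 9.64, 9.71 and 9.66 in WT pools 1, 9 and 11. Col2a1, the main fibril collagen of cartilage, read 9.27 and 9.50 in KO pools 2 and 4, against 9.49, 9.52 and 9.64 in WT pools 1, 9 and 11. The KO and WT pools overlapped in both. The differences were -0.03 (SE 0.17) for Col27a1 and -0.17 (SE 0.17, 95% interval from -0.52 to 0.18) for Col2a1. The 6 measured markers of cartilage and bone averaged 7.23 and 7.42 in the KO pools, against 7.37, 7.38 and 7.49 in the WT pools. Of these 0 were called and 1 was lower at unadjusted p below 0.05 (16.7%, against 14.3% of all probe sets). The fibrillar median of -0.10 does not cover Col1a1 or Col3a1, the bulk of nerve fibrils.

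The basement membrane group, collagen IV, laminins and nidogens, had 7 measured members of 19. All 7 had positive differences, from 0.06 to 0.35 with a median of 0.17, and 0 passed the test, also at unadjusted p below 0.05 (lowest adjusted p = 0.387 in limma). Over the 7 the mean level was 10.003 and 10.15 in KO pools 2 and 4, against 9.96, 9.87 and 9.86 in WT pools 1, 9 and 11. Their median difference was 0.12 against WT pool 1 alone, positive in 6 of 7, the exception being Lama3 at -0.07. A pool with fewer cells of a type and one with less RNA per cell cannot be told apart in these data.

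Col4a1 encodes an alpha chain of the collagen IV network found in all basement membranes. It read 11.48 and 11.66 in KO pools 2 and 4, against 11.46, 11.30 and 11.34 in WT pools 1, 9 and 11. Both KO pools stood above the WT pools, KO pool 2 by a margin of hundredths. The difference was 0.21 (SE 0.17, 95% interval from -0.14 to 0.55, adjusted p = 0.594), and 0.12 against WT pool 1 alone. Col4a6, the X-linked chain of a minor collagen IV network, had a difference of 0.15 (SE 0.17) with overlapping pools.

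Lamc1 encodes the gamma chain shared by most laminins, including those of Schwann cells. Its level was 13.41 and 13.58 in KO pools 2 and 4, against 13.43, 13.25 and 13.30 in WT pools 1, 9 and 11, so KO pool 2 lay inside the WT range. The difference was 0.17 (SE 0.17, adjusted p = 0.656). Lama5, the alpha chain of laminins in vessels, epithelia and other mature basement membranes, read 8.93 and 9.30 in the KO pools, against 8.93, 8.79 and 8.59 in the WT pools. KO pool 2 and WT pool 1 had the same value, and KO pool 4 alone stood above all others. Its difference of 0.35 (SE 0.18, adjusted p = 0.387) was 0.16 without KO pool 4 and 0.53 without KO pool 2. Lama3 and Lamb3 encode chains of the laminin that anchors epidermis. Lama3 read 8.08 in each KO pool, against 8.15, 8.002 and 7.77 in WT pools 1, 9 and 11. Lamb3 read 7.83 and 7.90 in KO pools 2 and 4, against 7.66, 7.86 and 7.90 in WT pools 1, 9 and 11. The KO and WT pools overlapped in both genes, with differences of 0.11 and 0.06, while keratinocyte markers were high in WT pools 9 and 11.

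Nid2 encodes nidogen 2, which binds laminin gamma chains and collagen IV. It read 12.84 and 12.89 in KO pools 2 and 4, against 12.76, 12.52 and 12.62 in WT pools 1, 9 and 11. Both KO pools were above the WT pools, with WT pool 1 the closest. The difference was 0.23 (SE 0.17, 95% interval from -0.12 to 0.58, adjusted p = 0.542), and 0.11 against WT pool 1 alone.

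The largest difference of the 38 members was in a collagen that lies on fibrils. Col12a1 encodes collagen XII, a fibril-associated collagen of tendon, ligament, fascia and other dense connective tissue. Its level was 12.34 and 12.54 in KO pools 2 and 4, against 12.11, 11.57 and 11.77 in WT pools 1, 9 and 11. Both KO pools exceeded every WT pool, and WT pool 1 came nearest. The difference was 0.63 (SE 0.18, 95% interval from 0.24 to 1.01), a 1.54-fold higher level, with unadjusted p = 0.00275 and adjusted p = 0.111 in limma. Against WT pool 1 alone it was 0.33, and with WT pool 1 left out it was 0.77 (adjusted p = 0.110). Col12a1 was called with a trended robust prior (adjusted p = 0.00111), a fit that called 574 of all probe sets. It was also called among the 5180 probe sets above the median level (adjusted p = 0.0322), of which 287 were called. After centring, after quantile normalisation and without moderation it was not called (adjusted p from 0.360 to 0.560). Those fits called only 1, 1 and 0 of all probe sets. Nor was Col12a1 called without WT pool 9 (difference 0.50, adjusted p = 0.831) or without WT pool 11 (0.60, adjusted p = 0.413). Of all probe sets 1 was called without WT pool 9 and 105 without WT pool 11.

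Col14a1 encodes collagen XIV, the related fibril-associated collagen. It read 12.88 and 12.93 in KO pools 2 and 4, against 12.77, 12.53 and 12.58 in WT pools 1, 9 and 11, again with both KO pools on top. The difference was 0.28 (SE 0.17, adjusted p = 0.469), and 0.13 against WT pool 1 alone. The tendon markers beside them were measured in 4 of 6 genes, with Kera, a corneal and tendon proteoglycan gene, called higher (difference 1.99) and the other 3 at differences from -0.04 to 0.22. Of the endoneurial and perineurial fibroblast markers 9 of 10 were measured with 0 called. At unadjusted p below 0.05, 3 were higher and 1 lower (44.4%, against 14.3% of all probe sets). The 9 averaged 11.63 and 11.64 in the KO pools, against 11.52, 11.30 and 11.44 in the WT pools. The part of either cell type in the Col12a1 and Col14a1 differences was not tested.

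Collagen VI forms beaded filaments around cells, and 5 of its 6 genes were measured. Col6a1, a chain of the main collagen VI trimer, read 11.88 and 11.94 in KO pools 2 and 4, against 11.75, 11.65 and 11.71 in WT pools 1, 9 and 11. All WT pools lay below the KO pools within a narrow range. The difference was 0.21 (SE 0.16, 95% interval from -0.14 to 0.55, adjusted p = 0.588), and 0.16 against WT pool 1 alone. Col6a3, the large chain of the same trimer, had a difference of 0.21 and Col6a6, an alternative chain, of 0.21. The other alternative chains, Col6a5 and Col6a4, were at 0.11 and -0.06.

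Among the collagens of the basement membrane zone, Col15a1 encodes collagen XV, which ties basement membranes to the fibrils beneath and is deposited around Schwann cells and capillaries. Its level was 11.10 and 11.32 in KO pools 2 and 4, against 11.10, 11.01 and 10.85 in WT pools 1, 9 and 11. KO pool 2 was level with WT pool 1, and the difference was 0.23 (SE 0.17, adjusted p = 0.565). Col7a1, the anchoring fibril of skin, was at -0.01, and Col17a1, the transmembrane collagen of hemidesmosomes in skin, at -0.02. Col17a1 read 8.05 and 8.16 in KO pools 2 and 4, against 7.88, 8.22 and 8.25 in WT pools 1, 9 and 11, with the higher WT values in the pools where keratinocyte markers were high. Col17a1 was at 0.22 against WT pool 1 alone, and the part of skin cells in these values was not tested.

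Col26a1 encodes a secreted protein with collagenous stretches and had the most negative difference among the collagens. It read 10.85 and 10.80 in KO pools 2 and 4, against 11.04, 11.12 and 11.21 in WT pools 1, 9 and 11. Both KO pools lay below all WT pools, WT pool 1 included. The difference was -0.30 (SE 0.17, 95% interval from -0.65 to 0.04, adjusted p = 0.415). Col8a1, a short-chain network collagen of vessels, had a difference of 0.21 that turned to -0.10 against WT pool 1 alone. Col10a1, of hypertrophic cartilage, and Col13a1, a transmembrane collagen of adhesion sites, were at -0.03 and 0.04.

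Among the receptors 15 of 26 subunits were measured, of which 10 were positive and 5 negative, with a median of 0.22. None passed the test (lowest adjusted p = 0.225). At unadjusted p below 0.05, 4 were higher and 1 lower (33.3%, against 14.3% of all probe sets). Signs were split between alpha and beta subunits. Of 9 alpha subunits 8 were positive (median 0.25), and of 6 beta subunits 2 were positive (median -0.21). With WT pool 1 alone as the comparison the alpha median was 0.04 with 5 of 9 positive, and the beta median was -0.08 with 2 of 6 positive.

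Itgb8 encodes the beta subunit that pairs with Itgav, the alpha v chain, in a receptor that binds and activates latent TGF-beta. It read 12.64 and 12.10 in KO pools 2 and 4, against 12.79, 13.01 and 12.77 in WT pools 1, 9 and 11. Both KO pools lay below every WT pool, KO pool 4 by far more than KO pool 2. The difference was -0.49 (SE 0.19, 95% interval from -0.87 to -0.10), a 1.40-fold lower level, with unadjusted p = 0.0162 and adjusted p = 0.225. It was -0.75 without KO pool 2, -0.22 without KO pool 4 and -0.42 against WT pool 1 alone. With a trended robust prior Itgb8 was called (adjusted p = 0.00951), in a fit that called 574 of all probe sets. It was not called after centring, after quantile normalisation or without moderation (adjusted p from 0.365 to 0.560). Those fits called only 1, 1 and 0 of all probe sets. Nor was Itgb8 called among the probe sets above the median level (adjusted p = 0.0981) or with 1 WT pool left out (adjusted p from 0.324 to 0.831). Without WT pools 1, 9 and 11 in turn, 6, 1 and 105 of all probe sets were called. The mean of the Schwann cell markers given above was likewise lowest in KO pool 4 and next lowest in KO pool 2. Their part in the Itgb8 difference was not tested.

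Itgb3, which forms the platelet receptor with Itga2b and a vitronectin receptor with Itgav, was the other beta subunit with no overlap. Its level was 11.58 and 11.35 in KO pools 2 and 4, against 11.72, 11.77 and 11.61 in WT pools 1, 9 and 11. The KO pools were lower, KO pool 2 by only hundredths under WT pool 11. The difference was -0.23 (SE 0.17, adjusted p = 0.542). The 3 measured platelet markers had differences from -0.37 to 0.07, with 0 called. Itgb2, the common subunit of leukocyte integrins, was at -0.22 and Itgb6, an epithelial subunit, at -0.20, both with overlapping pools. Among 5 measured macrophage markers 4 were negative, and the 5 measured markers of other leukocytes were all positive. In these 3 blood cell lists 0 genes had unadjusted p below 0.05.

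Itgb5 encodes another partner of Itgav for vitronectin and was the beta subunit with the most positive difference. It read 10.83 and 11.19 in KO pools 2 and 4, against 10.82, 10.64 and 10.46 in WT pools 1, 9 and 11. Both KO pools stood above the WT pools, KO pool 2 by hundredths over WT pool 1. The difference was 0.38 (SE 0.18, 95% interval from 0.002 to 0.75, unadjusted p = 0.0487, adjusted p = 0.348). It was 0.20 without KO pool 4 and 0.20 against WT pool 1 alone. Itgb4, which pairs with Itga6 as a laminin receptor of Schwann cells, perineurium and skin, read 11.14 and 11.16 in the KO pools, against 11.19, 10.96 and 10.88 in the WT pools. WT pool 1 was the highest of the 5, and the difference was 0.14 (SE 0.17, adjusted p = 0.703). It turned to -0.04 when WT pool 1 stood alone.

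The alpha subunits that bind collagen were measured in 4 of 4 genes. Itga11, the fibroblast receptor for fibrillar collagen, read 8.09 and 8.70 in KO pools 2 and 4, against 7.92, 8.07 and 7.92 in WT pools 1, 9 and 11. KO pool 4 was well above the rest while KO pool 2 exceeded WT pool 9 by hundredths. The difference was 0.43 (SE 0.19, unadjusted p = 0.0333, adjusted p = 0.299), with 0.73 without KO pool 2 and 0.12 without KO pool 4. Itga1, the receptor for collagen IV on smooth muscle and other mesenchymal cells, read 10.81 and 11.06 in KO pools 2 and 4, against 10.90, 10.45 and 10.33 in WT pools 1, 9 and 11. WT pool 1 lay between the KO pools, and the difference of 0.38 (SE 0.19, adjusted p = 0.373) was 0.04 against WT pool 1 alone.

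Itga2, a collagen and laminin receptor of platelets and epithelia, was the only alpha subunit with a negative difference. It read 10.69 and 9.88 in KO pools 2 and 4, against 10.86, 10.43 and 10.54 in WT pools 1, 9 and 11. KO pool 2 lay within the WT range and KO pool 4 well below it. The difference of -0.33 (SE 0.21, adjusted p = 0.494) was -0.73 without KO pool 2 and 0.08 without KO pool 4. Itga10, a cartilage receptor for collagen, was at 0.16 with overlapping pools.

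In several other alpha subunits WT pool 1 read close to the KO pools. Itga8, a receptor for nephronectin and fibronectin on smooth muscle and mesenchyme, read 8.60 and 8.51 in KO pools 2 and 4, against 8.56, 7.84 and 7.71 in WT pools 1, 9 and 11. WT pool 1 sat between the KO pools, while WT pools 9 and 11 were low. The difference was 0.52 (SE 0.21, unadjusted p = 0.0231, adjusted p = 0.259), and -0.01 against WT pool 1 alone. Itga9, which binds tenascin and osteopontin, read 10.25 and 10.27 in KO pools 2 and 4, against 10.14, 9.62 and 9.80 in WT pools 1, 9 and 11. Both KO pools were above the WT pools, and the difference of 0.41 (SE 0.18, unadjusted p = 0.0365, adjusted p = 0.309) was 0.11 against WT pool 1 alone.

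The fibronectin receptor gene Itga5 and the Vcam1 receptor gene Itga4 were also lowest in WT pools 9 and 11. Itga5 read 10.73 and 10.80 in KO pools 2 and 4, against 10.80, 10.47 and 10.34 in WT pools 1, 9 and 11. Itga4 read 10.75 and 10.53 in KO pools 2 and 4, against 10.84, 10.17 and 10.25 in WT pools 1, 9 and 11. WT pool 1 had the highest value of all 5 in both genes. Their differences of 0.23 (SE 0.18) and 0.22 (SE 0.20) were -0.04 and -0.20 against WT pool 1 alone. Itga3, of the class of alpha subunits that mainly bind laminin, read 8.43 and 8.35 in KO pools 2 and 4, against 8.30, 8.17 and 7.96 in WT pools 1, 9 and 11. Its pools did not overlap, and the difference was 0.25 (SE 0.17, adjusted p = 0.531).

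**Figure D2:**
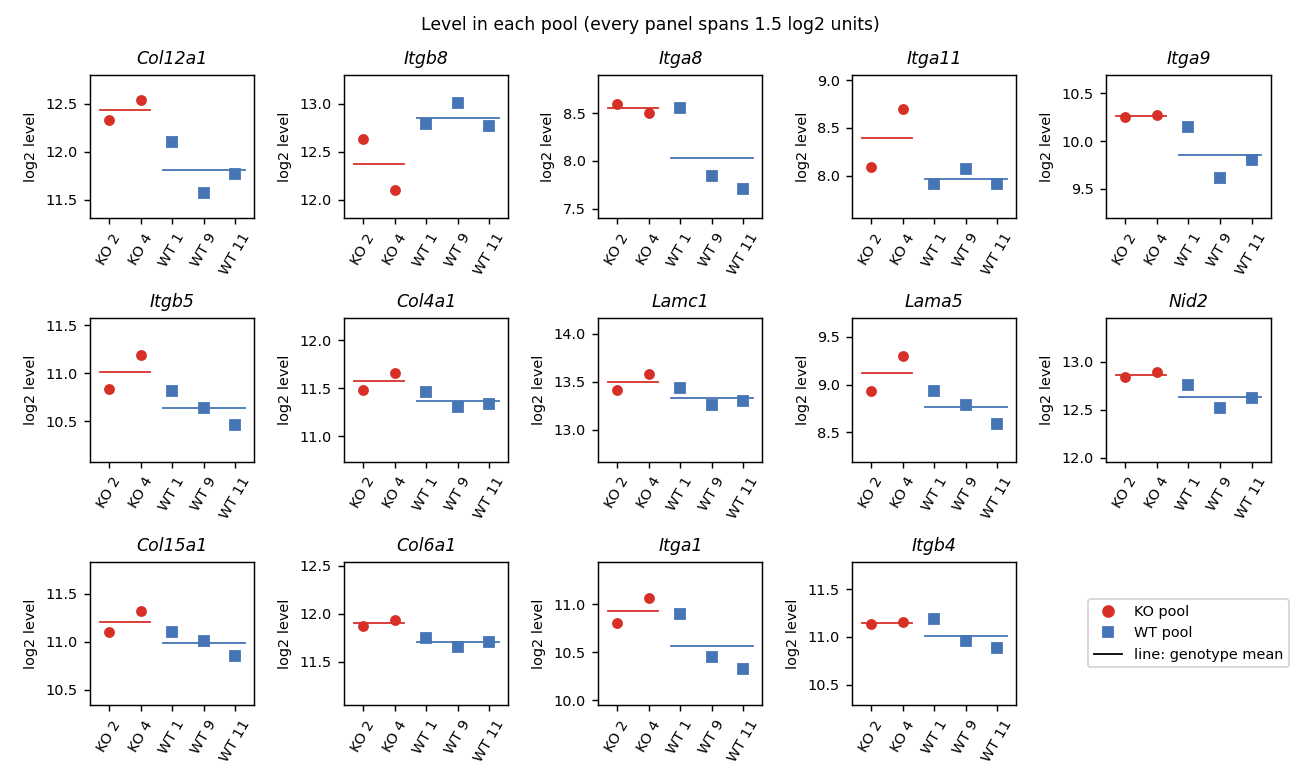
Log2 level of 14 members in each pool, KO pools as circles on the left and WT pools as squares on the right, with a line at each genotype mean and every vertical axis spanning 1.5 log2 units. WT pool 1 sits beside the KO pools for Itga8, Itga1 and Itgb4, and the KO pools differ most for Itga11 and Itgb8.

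Across the alpha subunits WT pool 1 exceeded WT pools 9 and 11 in 7 of 9 genes, by a median of 0.40 over their mean. Over all probe sets this held for 40.4%, with a median of 0.02. The 9 alpha subunits averaged 9.57 and 9.56 in KO pools 2 and 4, against 9.54, 9.22 and 9.18 in WT pools 1, 9 and 11. The mean of the pericyte and smooth muscle markers, 9 of 10 measured, was likewise lowest in WT pools 9 and 11. It was 10.90 and 10.86 in the KO pools, against 10.97, 10.30 and 10.09 in the WT pools. Of these markers 7 had positive differences, with Myh11, Tagln, Acta2 and Cnn1 from 0.72 to 0.99. Cspg4 and Mcam were negative (-0.29 and -0.14). Mcam read 12.78 and 12.71 in WT pools 9 and 11, against 12.71 and 12.50 in KO pools 2 and 4. The 10 endothelium markers averaged 10.81 and 10.56 in the KO pools, against 10.60, 10.21 and 10.17 in the WT pools. In both lists 0 genes were called, with 5 and 7 higher at unadjusted p below 0.05 (55.6% and 70%, against 14.3% of all probe sets). The part of these cells in the integrin differences was not tested.

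**Figure D3:**
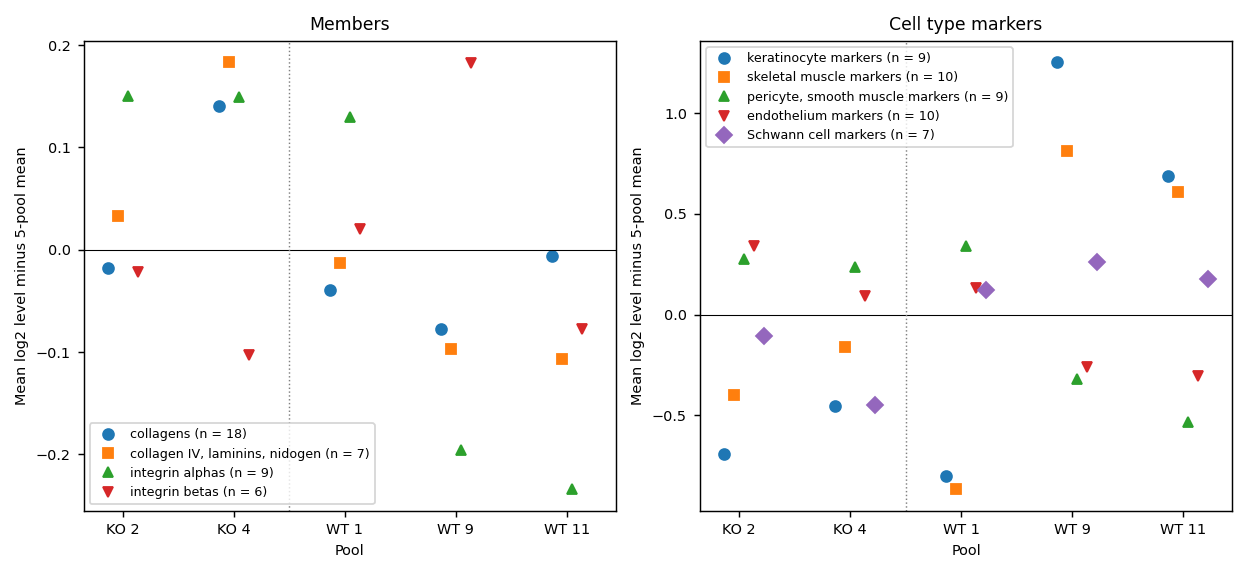
Mean log2 level of each list in each pool minus its mean over the 5 pools, for members (left panel) and cell type markers (right panel, wider axis), with KO pools left of the dotted line and the collagen IV chains counted in both matrix lists. The mean of the integrin alphas is low in WT pools 9 and 11. There the list means of pericyte and smooth muscle markers and of endothelium markers are also low. Those of keratinocyte and skeletal muscle markers are high.

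The KO pools differed from each other in the collagens. In 17 of 18 collagens KO pool 4 read above KO pool 2, with a median of 0.19, although KO pool 4 had the lower array median. Over all probe sets this held for 49.3%, with a median of 0. The exception was Col26a1. Of the 7 members of the basement membrane group 6 were higher in KO pool 4, and Lama3 was equal. The integrins showed no such side, with 8 of 15 higher in KO pool 4. Itga11 was 0.61 higher there, and Itga2 and Itgb8 were at -0.81 and -0.54. A higher level in KO pool 4 was not particular to matrix genes. It was also found in 8 of 9 keratinocyte markers (median 0.21) and 9 of 10 skeletal muscle markers (median 0.28). For cartilage and bone markers it was 5 of 6 (median 0.24). KO pool 4 was the lower in 7 of 7 Schwann cell markers (median -0.195) and 9 of 10 endothelium markers (median -0.17). The cause was not tested.

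**Figure D4:**
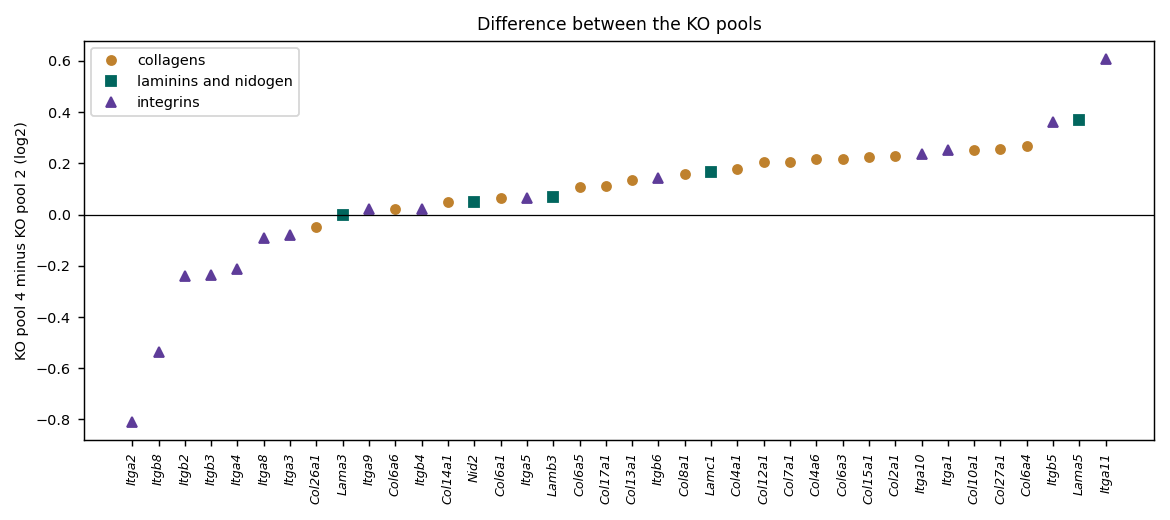
Difference between the KO pools (KO pool 4 minus KO pool 2, log2) for each of the 38 members, ordered by size, with collagens as circles, laminins and nidogen as squares and integrins as triangles. All collagens but Col26a1 lie above 0, and the extremes at either end are the integrins Itga2 and Itga11.

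Enzymes and chaperones that process collagen chains were measured in 21 of 32 listed genes, of which 1 was called higher, 0 lower and 20 not called. At unadjusted p below 0.05 there were 7 higher and 1 lower (38.1%, against 14.3% of all probe sets). Both KO pools read above all WT pools in 15 of 21 (71.4%, against 17.5% of all). Their median difference was 0.25 with 17 of 21 positive, beside 0.16 for the members. P4ha3, a catalytic subunit of the prolyl hydroxylase that stabilises the collagen helix, was the gene called. It read 10.21 and 10.27 in KO pools 2 and 4, against 9.83, 8.85 and 8.97 in WT pools 1, 9 and 11. Both KO pools exceeded all WT pools, and P4ha3 rose 2.03-fold (difference 1.02, SE 0.22, adjusted p = 0.0372). The difference was 0.41 against WT pool 1 alone. It was 1.33 without WT pool 1 and 0.84 without WT pool 9, where P4ha3 was not called (adjusted p = 0.0692 and 0.831). Nor was it called at 1.08 after centring, 1.03 after quantile normalisation or 1.02 without moderation (adjusted p from 0.360 to 0.560), fits in which 1, 1 and 0 of all probe sets were called. P4ha2, another such subunit, was at 0.71 (SE 0.19, adjusted p = 0.0780).

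Further basement membrane proteins and laminin receptors were measured in 14 of 24 genes, and 0 were called (median 0.13). At unadjusted p below 0.05, 3 were higher and 2 lower (35.7%, against 14.3% of all probe sets). Lum (0.45), a proteoglycan gene of the fibrils and not of basement membranes, was among the 3 higher and is also a fibroblast marker above. Drp2, the dystroglycan partner that links the Schwann cell surface to the cytoskeleton, was at -0.71 (SE 0.18, adjusted p = 0.0702), and Fbln1, for fibulin 1, at 0.58 (SE 0.19, adjusted p = 0.147). The partners of integrins inside the cell had 15 of 28 genes measured and 0 called (median 0.14, 1 higher at that threshold, 6.67%). Actn1, for alpha-actinin 1, was at 0.53 and Cav1, for caveolin 1, at 0.34. Other integrin ligands had 20 of 24 genes measured and 0 called (median 0.28, 16 of 20 positive). At that threshold 9 were higher and 1 lower (50%, against 14.3% of all probe sets). Both KO pools read above all WT pools in 14 of 20 (70%, against 17.5% of all). Vcam1, the ligand of Itga4 and Itga9, was at 0.79 (SE 0.20, adjusted p = 0.0659), and Ccn2, a matricellular integrin ligand, at 0.92 (SE 0.24, adjusted p = 0.0702). The medians against WT pool 1 alone were 0.16 for collagen processing, 0.06 for basement membrane proteins, 0.05 for the partners and 0.18 for the ligands.

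RefSeq promoter windows of assembly GRCm38.p6 were available for 28 of the 38 members, and the 250 bases before each annotated start were searched on both strands. Early B cell factors bind a palindrome of TCCC, 2 bases of any kind and its complement GGGA. This palindrome was found in 0 of 31 member windows, against 0.779% of all windows. Its inner part, CCC, 2 bases and GGG, was found in 4 of 31 member windows (12.9%), those of Col17a1, Col6a5, Col6a6 and Itga4, against 11.8% of all windows. None of these 4 genes was called. The GC box GGGCGG was found in 41.9% of member windows against 32.7% of all, the CCAAT box in 19.4% against 33.9%, and TATAAA in 9.68% against 12.4%. The TCCC palindrome and its inner part overlap each other by construction. A match describes letters only.

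Shown here are the windows of the 3 integrin genes with unadjusted p below 0.05 whose bases before the start lie outside annotated genes, so that the gene with a negative difference, Itgb8, can be read beside Itgb5 and Itga11. They lie at chr12:119238277-119238526 (- strand), chr16:33829415-33829664 (+ strand) and chr9:62677605-62677854 (+ strand). Capitals mark a CCAAT box in Itgb8 and GC boxes in Itgb5, each on either strand, and Itga11 has no match to any of the motifs searched.
Itgb8: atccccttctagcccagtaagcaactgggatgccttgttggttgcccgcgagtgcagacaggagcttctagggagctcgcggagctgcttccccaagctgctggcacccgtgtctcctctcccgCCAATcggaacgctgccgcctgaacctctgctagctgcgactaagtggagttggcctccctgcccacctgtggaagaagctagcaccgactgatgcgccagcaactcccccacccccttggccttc
Itgb5: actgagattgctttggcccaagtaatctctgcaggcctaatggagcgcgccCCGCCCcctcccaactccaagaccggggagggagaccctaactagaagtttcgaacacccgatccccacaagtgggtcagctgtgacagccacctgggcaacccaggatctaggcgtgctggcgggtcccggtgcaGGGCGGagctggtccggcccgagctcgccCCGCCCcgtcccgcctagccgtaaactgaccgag
Itga11: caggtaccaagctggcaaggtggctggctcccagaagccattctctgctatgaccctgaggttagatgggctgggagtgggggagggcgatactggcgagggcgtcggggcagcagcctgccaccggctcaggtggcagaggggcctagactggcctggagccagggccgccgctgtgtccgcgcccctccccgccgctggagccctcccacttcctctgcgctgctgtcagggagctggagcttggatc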

How the data were processed

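RNA of pooled newborn sciatic nerves was hybridised to Affymetrix arrays, 1 array per pool. The deposited table gives a log2 level for each probe set and array. RMA is named as the tool in the submitters' processing notes, and the sources used here give neither its version nor a filter. Names came from the platform annotation, in which 9411 of 10361 had 1 symbol, 384 had several and 566 were not listed. All 38 member symbols matched RefSeq (GRCm38.p6) by gene ID.

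The log2 values were used as deposited. Limma 3.58.1 in R 4.3.3 (lmFit, eBayes, default prior, no covariates) compared KO with WT over all 10361 probe sets, with 3 residual and 17.4 prior degrees of freedom, two-sided, with Benjamini-Hochberg adjustment. The fit was also run on simulated data with independent noise drawn from its own prior. That run lacked the differences between WT pools seen here, so it cannot check the p-values against them. The 5 arrays limit the precision. "Against WT pool 1 alone" leaves out WT pools 9 and 11. The moderated prior rests on a table that lacks probe sets of small spread.

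Members, classes and gene lists were chosen with earlier results of these data known, and no test was run over a list. Members at adjusted or unadjusted p below 0.05, and a list of genes fixed by role, are given with every pool's value. The other members are given more briefly, and those with every pool's value beyond that rule (Col27a1, Col2a1, Lama3, Col14a1, Col17a1, Col26a1, Lamb3, Itgb3, Itga2, Itga3, Itga4 and Itga5) were chosen after their values were seen. Of other genes, called ones and the 2 of lowest p in each pathway list are named. Alternatives were median centring, quantile normalisation, no moderation, a trended robust prior, a filter on level, and pools left out.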

Additional observations from a re-analysis of the deposited data

How the results depend on the processing

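No paired analysis was run because the sources used here name no pairing between KO and WT pools. The count called over all probe sets, 70, was 1 after median centring and 1 after quantile normalisation, 0 without moderation, 574 with a trended robust prior and 287 of the 5180 probe sets above the median level. It ran from 0 to 105 with 1 pool left out and was 0 without WT pools 9 and 11. Members called were 1 higher (Col12a1) and 1 lower (Itgb8) with the trended robust prior, 1 higher (Col12a1) above the median level and 0 otherwise. At unadjusted p below 0.05 members were 3 higher and 1 lower after centring, where 11.9% of all probe sets passed. After quantile normalisation 4 were higher and 2 lower (13.2% of all probe sets). Without moderation 2 were higher and 1 lower (4.81% of all probe sets). With WT pool 1 left out 10 members passed, 9 of them higher, beside 15.9% of all probe sets. Without WT pool 9 there was 1, beside 4.14% of all, and without WT pool 11 there were 2, beside 8.22%. The share of positive differences was 81.6% of members and 56.7% of all probe sets after centring, a common shift, and 78.9% and 52.1% after quantile normalisation, against 68.4% and 49.8% as reported. The fibrillar median ran from -0.221 to 0.0208 and the basement membrane median from 0.11 to 0.26 with 1 pool left out (highest without KO pool 2, for both), and the integrin median was -0.0055 without WT pools 9 and 11. Of the 23 members at least 1 SE from 0, Itga8 (-0.0055), Itga4 (-0.20), Itga5 (-0.0375) and Col8a1 (-0.10) turned without WT pools 9 and 11, and Itga2 without KO pool 4 (from -0.731 to 0.078 with 1 pool left out). The cause was not tested. Where 1 pool is left in an arm (without either KO pool, or without WT pools 9 and 11), it is assumed to vary like the other arm. These fits called 0 of all probe sets, so a call lost in them shows nothing about a gene.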
